A study of Rattus norvegicus with 33 samples.

Results

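The bacterial families Eggerthellaceae, Atopobiaceae and Coriobacteriaceae were examined in shotgun metagenomes of rat cecal contents. Members were all rows of the deposited species and genus tables assigned to these families. The rule found 23 of 5543 species rows, of which 12 belonged to Eggerthellaceae, 9 to Atopobiaceae and 2 to Coriobacteriaceae. It found 14 of 1455 genus rows, of which 8, 4 and 2 fell in the families in that order. They are also all rows of the class Coriobacteriia, so the class and the families name the same rows. Every member had reads in all 33 libraries, and every member passed the filter on low values used for testing.

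The study set the spontaneously hypertensive rat (SHR), bred for a raised blood pressure, against the Wistar Kyoto rat (WKY), the normotensive strain it is usually compared with. The groups were 10 female SHR, 9 female WKY, 7 male SHR and 7 male WKY rats, each library being one animal. All rats were 14 to 15 weeks old at collection, per the design text, and no drug, diet or surgery is named. The labels give no cage, litter or run, and the sample numbers run by strain, so that strain and processing order cannot be told apart. Cecal contents also cannot separate fewer cells of a taxon from less DNA recovered per cell.

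Bacteria of these families are anaerobic, high-GC Actinomycetota that live at low abundance in the mammalian gut. Many Eggerthellaceae do not live on sugars and gain energy by reducing or dehydroxylating other molecules, among them plant polyphenols, catechols, nitro compounds, steroids and drugs. Atopobiaceae and Coriobacteriaceae are mostly sugar fermenters, and Collinsella, the best known of the latter family, also modifies bile acids. The tables name taxa by sequence similarity, and whether the rats' strains carry these activities was not measured.

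Total assigned reads ranged from 163140 to 886827 per library, with medians of 365717 in SHR females, 706634 in WKY females, 547938 in SHR males and 688051 in WKY males. Levels are given as normalized values, which are reads divided by the authors' size factor for the library, or as percent of bacterial reads. The size factor per 1000000 assigned reads was 2.17 ± 0.155 in SHR females and 1.68 ± 0.226 in WKY females (SD, n = 10 and 9), and 2.17 ± 0.173 in SHR males and 1.69 ± 0.441 in WKY males (SD, n = 7 each). The scales therefore differ by strain: the median log2 difference over all 4641 species tested, SHR minus WKY, was -0.07 in females and -0.02 in males on normalized values, against 0.30 and 0.37 on percent of bacterial reads. Strain differences are described on normalized values first, and the called members and some others are also given on percent of bacterial reads. The plot of species differences shows both scales for all 23 species. The text calls a difference when its limma adjusted p, over all features tested, was under 0.05. Counts of members with an unadjusted p under 0.05 are given without the share of all features under it. Such counts are not read as results about the members.

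The class was a minor part of every cecum. It held 0.759 ± 0.162% of bacterial reads in SHR females and 0.945 ± 0.423% in WKY females, and 1.01 ± 0.216% in SHR males and 1.03 ± 0.251% in WKY males. Adlercreutzia, whose type species turns the soy isoflavone daidzein into equol, was the largest genus at a mean of 0.449% over all rats and stood 34th of all genera. It held 61.8 ± 10.3% of Eggerthellaceae reads in SHR females and 61.4 ± 7.37% in WKY females, and 62.0 ± 9.72% in SHR males and 64.3 ± 8.41% in WKY males. Olsenella, a lactate-forming sugar fermenter, came next at 0.128%, and Eggerthella at 0.0891%. Gordonibacter averaged 0.0621%, Collinsella 0.0517%, Arabia 0.0315% and Slackia 0.0304%. Denitrobacterium (0.0186%), Libanicoccus (0.0185%), Parolsenella (0.0119%), Coriobacterium (0.00975%), Lancefieldella (0.00709%), Phoenicibacter (0.00690%) and Cryptobacterium (0.00614%) made up the rest, with as few as 7 reads in a library for Coriobacterium.

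In females, 5 species of Eggerthellaceae, among them polyphenol, catechol and nitro-compound reducers, were lower in SHR than in WKY rats on normalized values, and no member of either fermenting family was called. Of the 23 species, 5 fell and none rose, all 5 being Eggerthellaceae, and 4 further species had an unadjusted p under 0.05. Over all species tested, 1.7% were called lower in SHR females. Of the 14 genera, 3 fell, Gordonibacter, Arabia and Denitrobacterium, and 0.494% of all genera tested were called lower. The members' median log2 difference was -0.38, and 21 of 23 were negative, as were 56.7% of all species tested.

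Gordonibacter converts ellagic acid to urolithins and removes hydroxyl groups from catechols. In normalized values it had a lowest, median and highest level of 159.5, 189 and 252 in SHR females, against 199.5, 451.5 and 716 in WKY females. All 10 SHR females lay below the WKY female median and 7 lay below the lowest WKY female, although the groups overlapped. The genus was the one member called on both scales, with a log2 difference of -1.0 ± 0.23 (SE, limma adjusted p = 0.0181) on normalized values and -0.61 ± 0.20 (limma adjusted p = 0.0412) on percent of bacterial reads. It was called under all 12 other settings tried and with each of the 33 rats left out in turn.

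Both named Gordonibacter species moved with the genus. Gordonibacter urolithinfaciens, named for urolithin formation, had 39.9, 65.0 and 89.4 (lowest, median and highest normalized value) in SHR females and 59.0, 161.6 and 224 in WKY females. Its log2 difference was -0.99 ± 0.23 (SE, limma adjusted p = 0.0169). Gordonibacter pamelaeae had 54.5, 70.7 and 82.3 in SHR females and 72.9, 131 and 214 in WKY females, a log2 difference of -0.85 ± 0.22 (SE, limma adjusted p = 0.0306). For each species all 10 SHR females were below the WKY median. The call of Gordonibacter pamelaeae ended when SHR female 8 or WKY female 1, 2, 3, 5 or 9 was left out, with limma adjusted p between 0.0515 and 0.0669. Of the genus's reads, 33.1% were assigned to the genus and to no named species, the highest such share among the members.

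Denitrobacterium detoxificans, a bacterium first known from the rumen that reduces toxic plant nitro compounds, is the one species row of its genus. It had 39.9, 59.9 and 93.1 (lowest, median and highest normalized value) in SHR females and 63.3, 130 and 186 in WKY females. Of the 10 SHR females 8 were below the lowest WKY female, and the highest SHR female, at 93.1, lay below the WKY median. The log2 difference was -0.87 ± 0.19 (SE, limma adjusted p = 0.00805 among species). Arabia massiliensis, also the only species row of its genus, had 77.9, 105 and 129 in SHR females and 106, 211 and 336 in WKY females, a log2 difference of -0.96 ± 0.22 (SE, limma adjusted p = 0.0169). Its highest SHR female stood below the WKY female median, and 5 of 10 stood below the lowest WKY female.

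**Figure D1:**
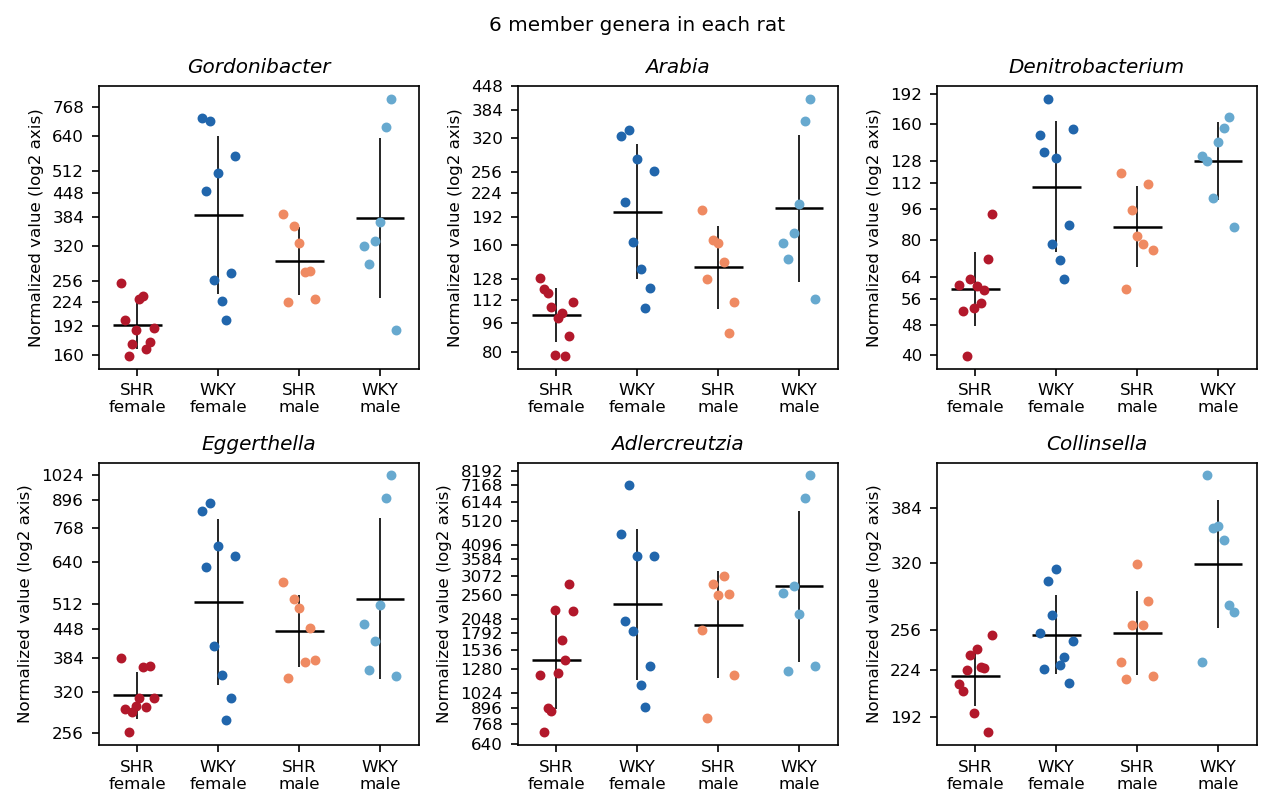
Normalized values (log2 axis) of 6 member genera, one point per rat, in SHR females (n = 10), WKY females (n = 9), SHR males (n = 7) and WKY males (n = 7); horizontal bars are means of log2 values and vertical bars ± 1 SD. For Gordonibacter, Arabia, Denitrobacterium and Eggerthella every SHR female lies below the WKY female median, while Adlercreutzia spreads widely in both strains. For Collinsella most SHR females lie below the WKY female median of 247, and the highest, at 252, lies above it. In females all 6 genera overlap between the strains.

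Within Eggerthella the species differed. Eggerthella lenta inactivates the heart drug digoxin, dehydroxylates dopamine and modifies bile acids and corticosteroids. It had 71.1, 93.6 and 116 (lowest, median and highest normalized value) in SHR females and 84.1, 186 and 284 in WKY females. Its log2 difference of -0.77 ± 0.22 missed the threshold (SE, limma adjusted p = 0.0528), with an adjusted p between 0.0173 and 0.246 under the other settings and a call in 5 of those 12. Its difference on percent of bacterial reads was -0.39 (limma adjusted p = 0.246). Eggerthella sp. HF-1101 was called, with 67.7, 78.2 and 104 in SHR females and 81.5, 195 and 297 in WKY females and a log2 difference of -1.02 ± 0.23 (SE, limma adjusted p = 0.0126). Eggerthella sp. YY7918, an equol producer, had a log2 difference of -0.17 ± 0.19 (limma adjusted p = 0.695). For Eggerthella lenta and HF-1101 all 10 SHR females lay below the WKY median, and for YY7918 9 of 10 did, although none lay below the lowest WKY female.

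Adlercreutzia varied more between rats than any called genus. It had 712, 1319 and 2847 (lowest, median and highest normalized value) in SHR females and 898, 2018 and 7202 in WKY females, and 7 of 10 SHR females lay below the WKY median. The log2 difference of -0.75 ± 0.38 was not called (SE, limma adjusted p = 0.327), and its 95% interval ran from -1.51 to 0.0021. Its difference on percent of bacterial reads was -0.36 (limma adjusted p = 0.439). Adlercreutzia equolifaciens (-0.79 ± 0.37, limma adjusted p = 0.263) and Adlercreutzia sp. 8CFCBH1 (-0.69 ± 0.36, limma adjusted p = 0.315) gave like values.

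The remaining Eggerthellaceae were not called. Slackia heliotrinireducens, which reduces the plant alkaloid heliotrine, had 91.9, 122 and 150 (lowest, median and highest normalized value) in SHR females and 119, 167 and 230 in WKY females. All 10 SHR females lay below the WKY median, and the genus's log2 difference was -0.48 ± 0.14 (SE, limma adjusted p = 0.0703). Phoenicibacter congonensis (-0.38 ± 0.23, limma adjusted p = 0.402) and Cryptobacterium curtum, an arginine-using oral species (-0.38 ± 0.23, limma adjusted p = 0.400), rested on 8 to 74 and 10 to 59 reads per library.

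The fermenting families showed smaller differences in females. The 9 Atopobiaceae species had a median log2 difference of -0.15 and ranged from -0.47 to 0.14, with 7 of 9 negative. The extremes were Lancefieldella parvula, an oral species once placed in Atopobium (-0.47 ± 0.21, limma adjusted p = 0.225), and Olsenella uli, an oral sugar fermenter (0.14 ± 0.18, limma adjusted p = 0.734). Collinsella aerofaciens had 183, 225 and 252 (lowest, median and highest normalized value) in SHR females and 215, 247 and 314 in WKY females, a log2 difference of -0.20 ± 0.15 (SE, limma adjusted p = 0.521). Coriobacterium glomerans, named from the gut of a soldier bug, had -0.11 ± 0.18 (limma adjusted p = 0.795). The 12 Eggerthellaceae species had a median of -0.78 and were all negative.

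On percent of bacterial reads none of the 23 species was called, by the same limma fit, although 7 had an unadjusted p under 0.05, and 0.388% of all species tested were called lower. Gordonibacter alone of the 14 genera was called, against 0.212% of all genera called lower. The rescaling turned the calls over all species from 29 higher and 79 lower in SHR females to 342 higher and 18 lower, and the members' median to -0.0012, with 12 of 23 negative. The place of the members among all species moved little: their median lay 0.31 below the median of all species on normalized values and 0.30 below it on percent of bacterial reads, and that of Eggerthellaceae lay 0.72 and 0.69 below it. On percent of bacterial reads, Denitrobacterium detoxificans had a log2 difference of -0.49 (limma adjusted p = 0.107), Arabia massiliensis -0.57 (0.0810), Eggerthella sp. HF-1101 -0.63 (0.0546), Gordonibacter urolithinfaciens -0.60 (0.0741) and Gordonibacter pamelaeae -0.47 (0.133). Olsenella and Collinsella turned positive there, at 0.28 (limma adjusted p = 0.215) and 0.19 (0.439), as did Eggerthella sp. YY7918 (0.22), while Olsenella uli stood at 0.52 (0.0776). With libraries thinned to the depth of the shallowest, Arabia massiliensis was the only member species called, against 0.366% of all species called lower.

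**Figure D2:**
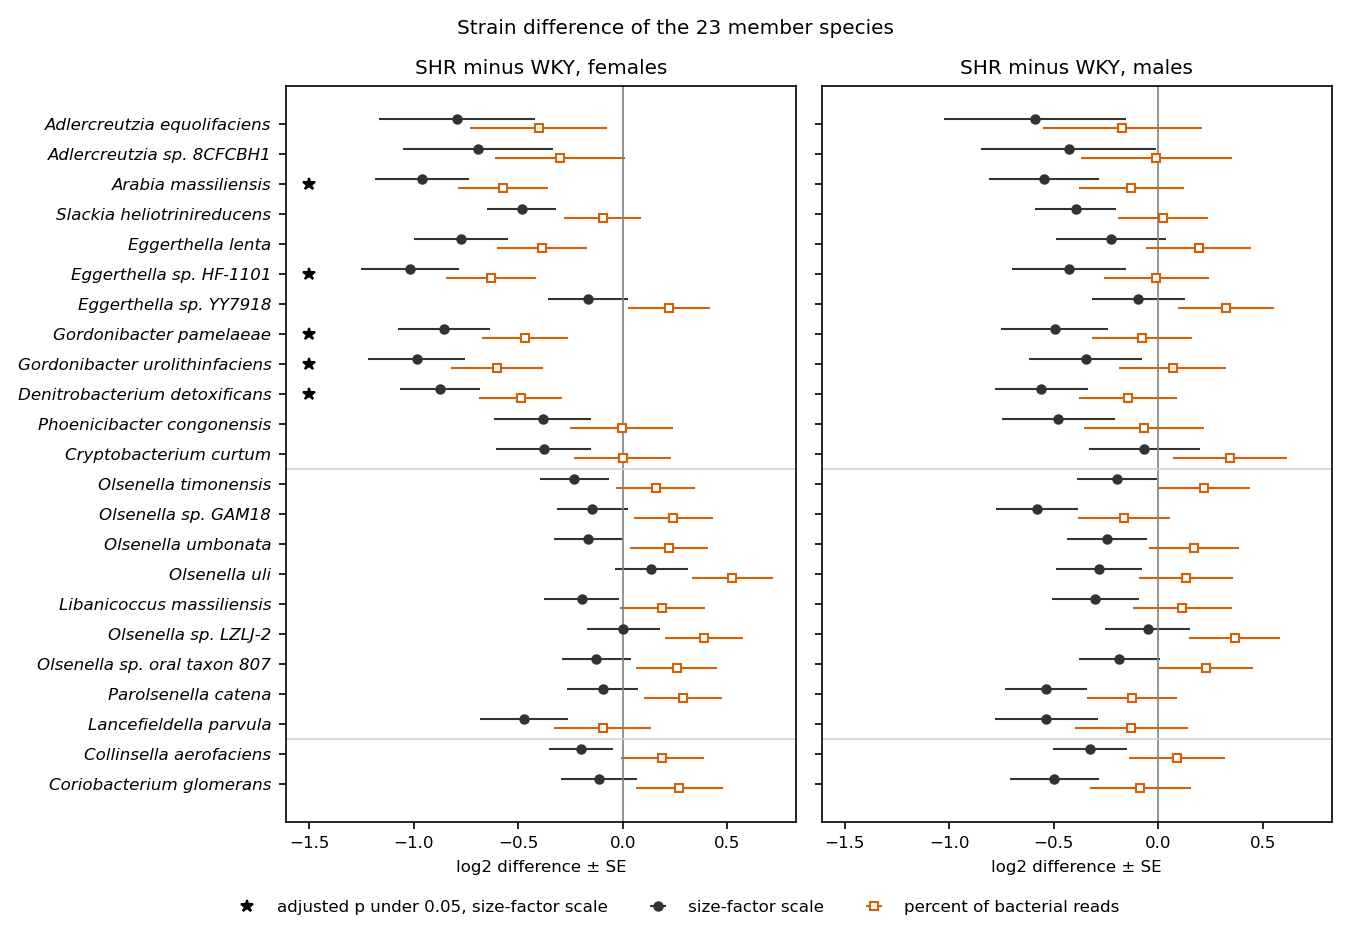
Log2 difference, SHR minus WKY, of the 23 member species in females (left) and males (right), as estimates ± SE from limma on normalized values (filled circles) and on percent of bacterial reads (open squares); stars mark an adjusted p under 0.05 on normalized values and grey lines separate Eggerthellaceae, Atopobiaceae and Coriobacteriaceae. The 5 starred species are all Eggerthellaceae in females, and the change of scale shifts all species to the right by a like amount.

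A ratio between families within each rat does not depend on the scaling. The log2 ratio of Eggerthellaceae reads to those of the other families had a lowest, median and highest value of 0.61, 1.26 and 2.24 in SHR females and 0.89, 1.91 and 2.80 in WKY females. Its mean was 1.246 ± 0.54 in SHR females and 1.85 ± 0.72 in WKY females (SD, n = 10 and 9), and 9 of 10 SHR females lay below the WKY median. With Adlercreutzia left out of the family, the ratio was -0.19 ± 0.21 in SHR females and 0.45 ± 0.49 in WKY females, and all 10 SHR females lay below the WKY median. In males this ratio was 0.018 ± 0.31 in SHR rats and 0.071 ± 0.44 in WKY rats (SD, n = 7 each), and 3 of 7 SHR males lay below the WKY median. These totals were summed over members chosen with earlier results known and are given without a test.

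The family totals behind the ratio depended on the scale. Eggerthellaceae held 0.540 ± 0.168% of bacterial reads in SHR females and 0.758 ± 0.402% in WKY females. Atopobiaceae held 0.159 ± 0.0204% in SHR females and 0.135 ± 0.0271% in WKY females, and Coriobacteriaceae 0.0598 ± 0.00757% in SHR females and 0.0520 ± 0.0106% in WKY females. On this scale no SHR female lay below the WKY median for Atopobiaceae (0 of 10) and 1 of 10 did for Coriobacteriaceae, against 8 of 10 for Eggerthellaceae. On normalized values those counts were 6, 10 and 9 of 10, and the strain difference of mean log2 totals was -0.13 for Atopobiaceae and -0.18 for Coriobacteriaceae, against 0.26 and 0.21 on percent of bacterial reads. For Eggerthellaceae it was -0.75 on normalized values and -0.36 on percent. The related family Bifidobacteriaceae, sugar fermenters of the same phylum, held 1.64 ± 0.780% in SHR females and 1.84 ± 0.773% in WKY females. In normalized reads that family had 7391 ± 3754 in SHR females and 10573 ± 3723 in WKY females, so it too was lower in value in SHR females, without a test.

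**Figure D3:**
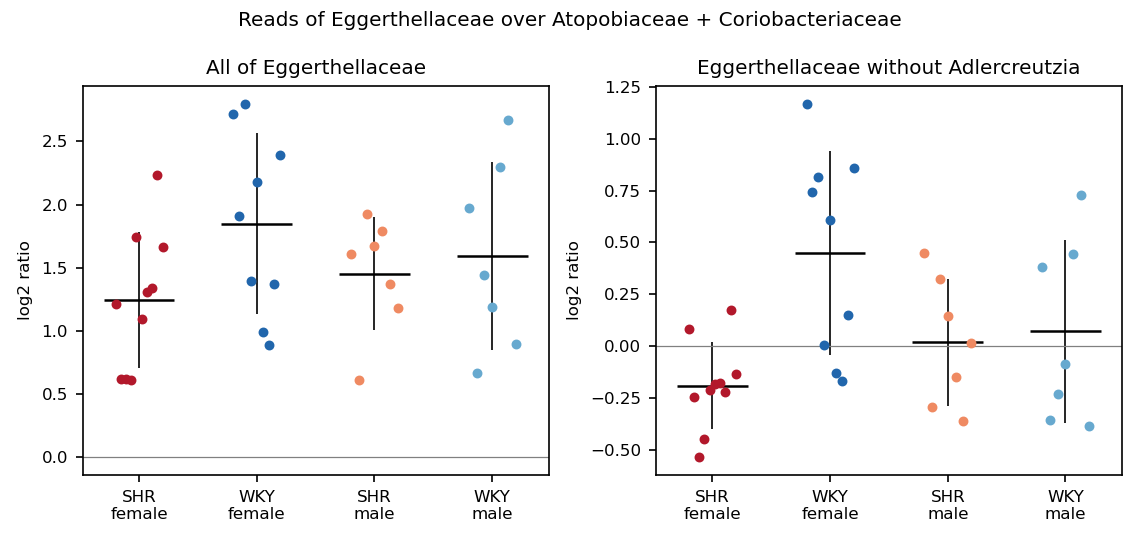
Log2 ratio of Eggerthellaceae reads to Atopobiaceae plus Coriobacteriaceae reads, one point per rat, for the whole family (left) and without Adlercreutzia (right); bars are mean ± SD. Without Adlercreutzia the ratio averaged -0.19 in SHR females and 0.45 in WKY females, and the male groups overlap.

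In males no member was called between the strains, against 0.539% of all species and 0% of all genera called in either direction. By limma, 7 of 23 species and 7 of 14 genera had an unadjusted p under 0.05. The shares above are of adjusted calls and cannot be set against these counts. All 23 species had a negative difference on normalized values, where 51.9% of all species did, with a median of -0.40, and 11 of 23 were negative on percent of bacterial reads. The edgeR fit called no member, against 1.27% of all species, and DESeq2 called 1 of 23, Olsenella sp. GAM18, against 3.75% of all species.

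The genera called in females had these values in males. Gordonibacter had 225, 272 and 391 (lowest, median and highest normalized value) in SHR males and 188, 329 and 811 in WKY males, a log2 difference of -0.39 ± 0.27 (SE, limma adjusted p = 0.627), and 0.031 on percent of bacterial reads. Arabia had 90.2, 143 and 200.4 in SHR males and 113, 173 and 413 in WKY males (-0.55 ± 0.25, limma adjusted p = 0.384). Denitrobacterium had 59.4, 81.8 and 119 in SHR males and 86.4, 132 and 167 in WKY males, and all 7 SHR males lay below the WKY male median (-0.56 ± 0.21, limma adjusted p = 0.248). Adlercreutzia had 811, 2558 and 3075 in SHR males and 1266, 2624 and 7853 in WKY males (-0.52 ± 0.45, limma adjusted p = 0.733). These differences were -0.13 for Arabia, -0.15 for Denitrobacterium and -0.10 for Adlercreutzia on percent of bacterial reads (limma adjusted p = 0.682, 0.639 and 0.853).

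The strain difference was not shown to differ between the sexes for any member. No member was called for the strain-by-sex term by limma, edgeR or DESeq2, against 0.0215% of all species and 0% of all genera. By limma none of the 23 species had an unadjusted p under 0.05 for it. Gordonibacter had a term of -0.61 ± 0.35 (females minus males, limma adjusted p = 0.842), and Gordonibacter urolithinfaciens -0.64 ± 0.36 (limma adjusted p = 0.748). Parolsenella, at 0.44 ± 0.24, leaned the other way (limma adjusted p = 0.842). Of the 12 Eggerthellaceae species 11 had a negative term, against 1 of the 9 Atopobiaceae. The median term over all species was -0.03, and the median of the 23 members differed from it by -0.00049. That of Eggerthellaceae differed from it by -0.28 and that of Atopobiaceae by 0.11. These signs and medians were not tested.

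Among WKY rats the members called lower in females than in males were all Atopobiaceae. Olsenella sp. GAM18 was the 1 species of 23 called, against 0.302% of all species called lower in WKY females, and Olsenella and Parolsenella were the 2 of 14 genera, against 0.846% of all genera. Olsenella sp. GAM18 had 88.5, 103 and 129 (lowest, median and highest normalized value) in WKY females and 107, 220.5 and 234 in WKY males. All 9 females were below the male median, and the log2 difference was -0.74 ± 0.19 (SE, limma adjusted p = 0.0480).

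Parolsenella, a genus close to Olsenella, had 39.9, 48.6 and 91.8 in WKY females and 60.7, 85.4 and 118 in WKY males. Its only species row, Parolsenella catena, holds the same values but was not called among species, so the call rests on the adjustment over genera. Of the 9 females 7 lay below the lowest male, while WKY female 9 exceeded the male median (-0.69 ± 0.17, limma adjusted p = 0.0311). The genus Olsenella had 469, 567.7 and 800.3 in WKY females and 542, 818 and 1049 in WKY males (-0.48 ± 0.14, limma adjusted p = 0.0483), and all 9 females lay below the male median. The differences kept their size on percent of bacterial reads, at -0.72, -0.67 and -0.45 for GAM18, Parolsenella and Olsenella, but none was called there (limma adjusted p = 0.154, 0.146 and 0.323). Leaving out 1 rat at a time, the call held in 10 of 33 runs for GAM18, 25 of 33 for Parolsenella and 6 of 33 for Olsenella. For Parolsenella the runs that ended it left out WKY female 4, 6, 7 or 8 or WKY male 2, 4, 5 or 6. All 9 Atopobiaceae species had a negative difference, with a median of -0.44, both Coriobacteriaceae species were negative too, with a median of -0.43, and the 12 Eggerthellaceae species had a median of -0.17. All 9 WKY females lay below the WKY male median for the Coriobacteriaceae total in normalized reads, and 8 of 9 did on percent of bacterial reads.

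**Figure D4:**
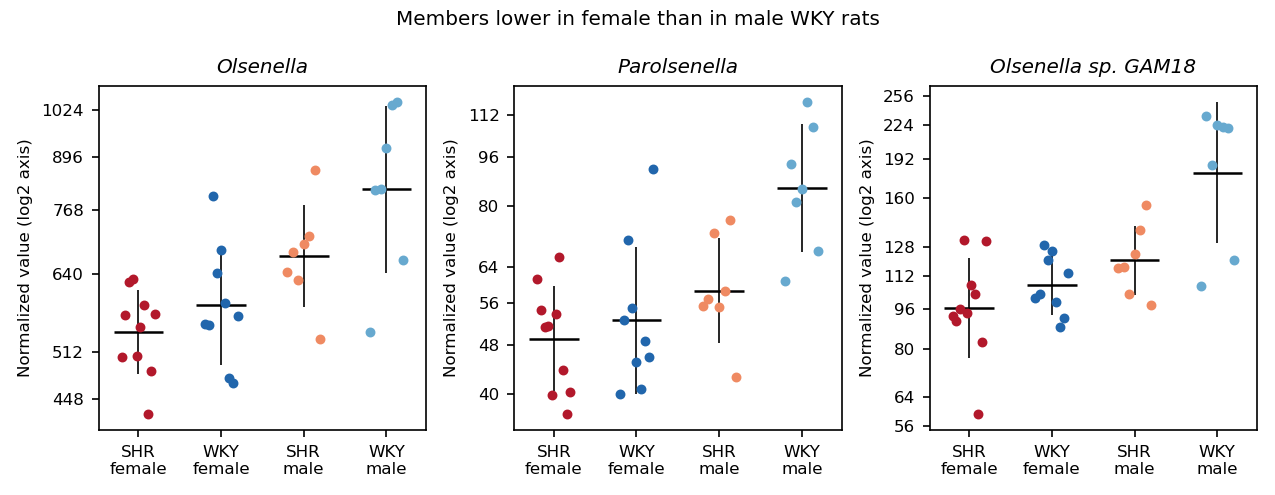
Normalized values (log2 axis) of Olsenella, Parolsenella and Olsenella sp. GAM18, one point per rat, in SHR females (n = 10), WKY females (n = 9), SHR males (n = 7) and WKY males (n = 7); bars are means of log2 values ± 1 SD. WKY males are the highest group for all 3, with GAM18 at a median of 220.5 against 103 in WKY females.

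Among SHR rats no member was called between the sexes by limma, edgeR or DESeq2, and neither was any other species or genus (0% of both). By limma 6 of the 23 species had an unadjusted p under 0.05. Of the 23 species 22 were lower in value in females, where 55.7% of all species were, with a median log2 difference of -0.36 for the members and -0.04 for all species. Gordonibacter pamelaeae had 54.5, 70.7 and 82.3 (lowest, median and highest normalized value) in SHR females and 79.5, 105 and 136 in SHR males. Of the 10 females 9 lay below the lowest male, yet the log2 difference of -0.54 ± 0.24 did not pass (SE, limma adjusted p = 0.988). Denitrobacterium gave -0.53 ± 0.19 (limma adjusted p = 0.989).

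The Adlercreutzia species kept a nearly fixed ratio to each other. The SDs of levels and ratios given here are within groups, pooled over the 33 rats. The log2 ratio of Adlercreutzia sp. 8CFCBH1 to Adlercreutzia equolifaciens had an SD of 0.12, whereas their own log2 levels had SDs of 0.85 and 0.89. Counting error alone gives each species an SD of 0.059 and 0.049. The other Eggerthellaceae species had log2 ratios to Adlercreutzia equolifaciens with SDs from 0.54 for Eggerthella lenta to 0.78 for Cryptobacterium curtum. Set against Denitrobacterium detoxificans, which varied less, the Eggerthellaceae species outside Adlercreutzia had SDs from 0.28 for Eggerthella sp. YY7918 to 0.50 for Cryptobacterium curtum, with counting SDs up to 0.28. Related genomes can share reads, so the split between the Adlercreutzia rows is uncertain, and how far shared reads tied them was not tested. Among Atopobiaceae, Olsenella sp. GAM18 kept closest to Olsenella timonensis, with an SD of 0.24 for the log2 ratio, and Lancefieldella parvula was the least close at 0.57.

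**Figure D5:**
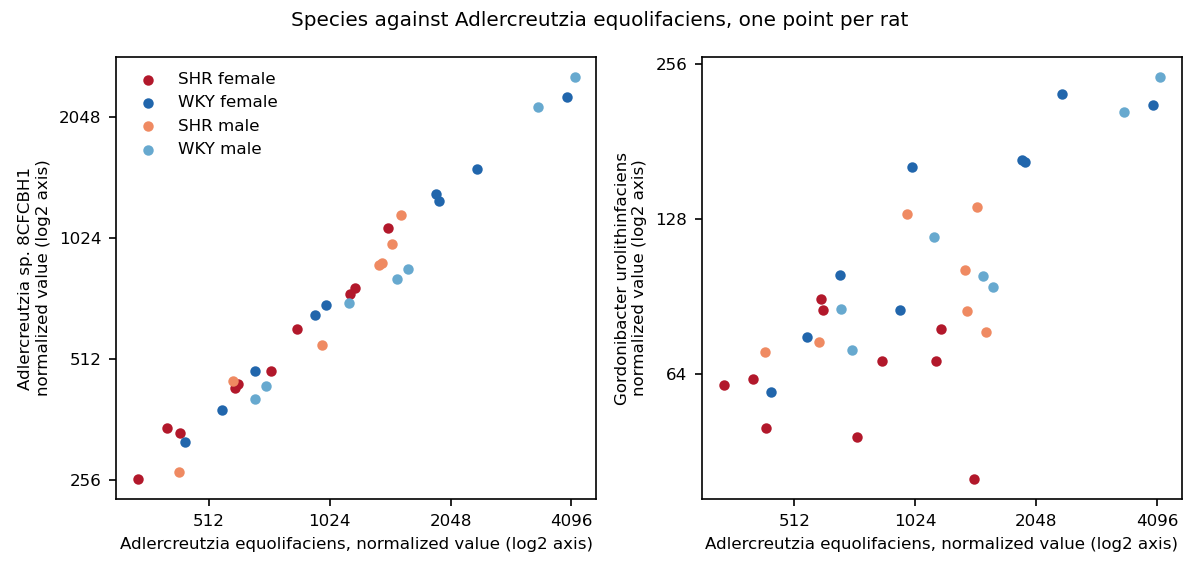
Normalized values (log2 axes) of Adlercreutzia sp. 8CFCBH1 (left) and Gordonibacter urolithinfaciens (right) against Adlercreutzia equolifaciens, one point per rat, coloured by group. The Adlercreutzia species lie near one line, with a within-group SD of 0.12 for their log2 ratio, while the ratio for Gordonibacter urolithinfaciens has a within-group SD of 0.65.

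Gene functions were counted for the whole community and not per taxon. Among 13 subsystems on aromatic compounds and steroids, 2 were called in either direction between SHR and WKY females, against 8.42% of all 1057 subsystems. Both were lower in SHR females. Aromatic amino acid degradation had 45.3 ± 10.3 normalized reads in SHR females and 89.2 ± 35.7 in WKY females (SD, n = 10 and 9), a log2 difference of -0.87 ± 0.22 (SE, limma adjusted p = 0.0130). Cinnamic acid degradation was listed at 0 in every SHR female and at 1.26 ± 1.21 in WKY females (limma adjusted p = 0.00200), so few reads that no fold is given. Steroid sulfates had 44.8 ± 23.1 in SHR females and 53.2 ± 41.8 in WKY females (limma adjusted p = 0.995). In males none of the 13 was called, and whether any of these reads came from the families described here was not tested.

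The authors' deposited model tables list members as well, but their genus and species names are out of step with their taxon numbers. By taxon number, the base means in the authors' deposited tables match the deposited species values (Pearson r = 1 over species, on the log scale), and by name they do not (r between 0.156 and 0.506). Read by number, the authors' deposited table for females holds 6 members among 236 rows, the 5 species called here and Eggerthella lenta. The table for males holds none among 41 rows, and a table for a general model holds 10 among 463 rows. Those 10 include members of the fermenting families: in the authors' deposited table Olsenella sp. GAM18 has the lowest adjusted p of the 10, at 5.63e-06, and Parolsenella catena and Collinsella aerofaciens are also listed. Which groups the general model compares is not stated. For all 10 its log2 fold changes lie close to those of WKY males over SHR females, which mixes strain and sex. Olsenella sp. GAM18 has 0.914 in the authors' deposited table, with mean normalized values of 188 in WKY males and 99.0 in SHR females. The 10 are therefore not read as strain differences. For Denitrobacterium detoxificans the authors' deposited table gives a log2 fold change of 0.959 with an adjusted p of 0.000421 in females, and for Eggerthella lenta 0.890 with 0.00289. All 6 values of the females' table are positive, and the direction is not stated. Their sizes lie close to the ratios of WKY female to SHR female means. Eggerthella lenta, at 0.890 in the authors' deposited table, had mean normalized values of 175 in WKY females and 94.4 in SHR females. The differences given above are SHR minus WKY, so their opposite sign describes the same direction. The row numbered as Denitrobacterium detoxificans carries the name Trueperella bialowiezensis, so that a search by name alone would miss it.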

How the data were processed

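Shotgun metagenomes of cecal contents from 33 rats were used. The authors deposited species and genus abundances as percent of all assigned reads, and normalized values per species (a signal: reads divided by a size factor). Per the submitters' processing notes, reads were handled with FastQC 0.11.5, Trimmomatic 0.36 and cutadapt 2.6, and DESeq2 was used. The taxonomic classifier and its database were not given in the sources used here. The authors' deposited model tables hold log2 fold changes, p-values and a standard error, here read as a score. Subsystem functions were deposited as normalized signal.

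Whole reads were recovered from both bacterial tables (100% of values within 0.01 read, the same reads in both). Genus values are those reads times the normalized value of 1 read. Log2(normalized value + 1) was fitted by limma 3.58.1 (R 4.3.3, trend and robust) as 4 group means over all 33 rats. Features with a value of at least 10 in at least 7 rats were tested, 4641 of 5999 species and 1418 of 1455 genera, and all 1057 functions. Fold changes on this scale understate the change of rare taxa. P-values were adjusted by Benjamini-Hochberg over all features of a table. On recovered reads, edgeR 4.0.16 (quasi-likelihood, TMM) called 172 species in females and DESeq2 1.42.0 called 244, against 108 by limma. Other settings were pseudocounts of 0.5 and 10, no filter, a filter of 50 in 17 rats, percent of bacterial reads, centred log-ratios, thinning, limma without trend and robust, 2 groups only, and leaving out rats. Replicate numbers only name rats and pair none.

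The members and lists were chosen with earlier results of these data known. All genera are accounted for; species were described if called, abundant, or known for a drug, steroid or plant-compound activity. The fit was tested on simulated data. Depth per library is given with the results, and read counts and counting SDs cover counting error only.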

Additional observations from a re-analysis of the deposited data

Results flagged for a closer look

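A rat stood apart when its gap to the next rat was a large share of its group's range. Single rats stood apart from the rest of their group in 8 of the 124 group values examined (6.45%). Chance gives about 1 in 20 for independent values, but species, genera and families here reuse the same reads. WKY female 5 was highest among WKY females for Olsenella (0.152% of bacterial reads, the next rat 0.113%), Collinsella (0.0698%, next 0.0464%), Olsenella sp. GAM18 (0.0278%, next 0.0207%), Atopobiaceae (0.196%, next 0.145%) and Coriobacteriaceae (0.0784%, next 0.0542%). These values share reads, and none of the Eggerthellaceae stood apart in that rat. WKY female 9 was highest for Parolsenella at 0.0137%, the next rat being at 0.00999%. SHR male 4 was highest for Cryptobacterium at 0.0158%, the next at 0.00821%. SHR male 1 was highest for Gordonibacter pamelaeae at 0.0334%, the next at 0.0243%.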

How the results depend on the processing

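Counts here are of member species and genera. The 5 species and 3 genera called in females depended most on the scale. On percent of bacterial reads 0 species and 1 genus were called, and thinning to the shallowest library left 1 species. The stricter filter and DESeq2 each called 5 genera. In males DESeq2 called 1 member species (and 3.75% of all species) where limma called 0 (and 0.539%). For females against males in WKY, where 1 species and 2 genera were called, the species count was 2 with a pseudocount of 10, edgeR or without the 3 shallowest libraries, 3 with the stricter filter or DESeq2, and 0 with no filter, percent of bacterial reads, thinning, limma without trend and robust, or only the 2 groups compared. The genus count was 4 with DESeq2, 1 with a pseudocount of 10, limma without trend and robust or without the 3 shallowest libraries, and 0 on percent of bacterial reads, with thinning or with only the 2 groups compared. The shares of all features called under these settings are not given for WKY or for the genera in females. DESeq2 also called more of all species than limma did in both sexes. The higher member counts are therefore not read as results about the members. Leaving out 1 rat at a time gave 4 to 6 species and 3 to 4 genera in females, 0 to 2 species and 0 to 2 genera between the sexes in WKY, and 0 for the other comparisons. On percent of bacterial reads the uncalled differences of Olsenella (0.28) and Collinsella (0.19) in females and Gordonibacter in males (0.031) changed sign. The cause was not tested, except that the scales differ by strain through the size factors. Group means of the family percents and of the ratio moved by less than 1 SD with all assigned reads as the denominator, with sums over species rows, without the 3 shallowest libraries and with single rats left out. The strain difference of the totals in females, however, changed sign with the scale for Atopobiaceae (0.26 on percent, -0.13 on normalized reads) and Coriobacteriaceae (0.21 and -0.18). No paired analysis was possible because the labels give no pairing of rats.

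Depth limits the rarest members: the lowest library had 7 to 10 reads each for Coriobacterium, Phoenicibacter, Cryptobacterium and Lancefieldella. The labels give neither cage nor litter, and p-values measure the spread between these rats only.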
